A study of Homo sapiens with 9 samples.

Results

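Control cells of OPM-1, a human cell line established from a plasma cell myeloma, are described here by the level of every named gene in their messenger RNA. They are the 3 gLuc samples among 9 samples of the series, and 38450 of its 38478 gene rows carry a gene name and were read. The gLuc cells stably expressed an RNA that targets luciferase, a gene that human cells do not carry, and their genotype is labelled WT. They were grown in RPMI medium with 10% fetal bovine serum, and the labels give no other treatment. The other samples of the series carried RNAs against FBXW7, alone or together with KMT2D, and were not used. The 3 gLuc samples are labelled as independent biological replicates of 1 line, so their spread does not cover differences between patients or lines. Levels are given as RPKM, reads per kilobase of gene length per 1000000 counted reads, which allows levels to be set side by side between genes, and each mean is given with the SD over the 3 samples (n = 3).

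A plasma cell is the end stage of B cell development, in which the regulators IRF4, PRDM1 and XBP1 replace the B cell programme with one for making and secreting antibody. The endoplasmic reticulum (ER) is enlarged in such cells, and its import, folding, glycosylation and export machinery is used at a high rate. Multiple myeloma is a cancer of these cells, in which translocations into the immunoglobulin loci often drive FGFR3 and NSD2, a D-type cyclin or a MAF family gene, and in which survival depends on niche signals, NF-kB activity and protein quality control.

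The samples held 19410151, 17025436 and 19244203 counted reads. In all, 10376 of the 38450 named rows (27.0%) had a mean of 1 RPKM or more, the level termed expressed here, and they included 9151 of the 19138 rows (47.8%) that RefSeq lists as protein-coding. A mean of 100 RPKM or more was reached by 661 rows, and 16781 rows (43.6%) had no read in any of the 3 samples. No read among the 55679790 of the 3 samples allows up to 3, or 0.0539 reads per 1000000, a limit that covers counting error only. The 100 rows of highest mean RPKM held 16.4% ± 1.99 of the reads. A level per kilobase depends on the length assigned to a gene. The alternative to the deposited length was the exon length of GENCODE v29, the union over all transcripts of a gene. With it, of 319 listed genes at 1 RPKM or more, 106 would be over 1.5 times lower and 15 over 1.5 times higher. Orders of level here are therefore those of the deposited lengths. The other value is given for some of the genes it moves, and a gene given without it can move too. RNA was measured in bulk, so fewer cells of a type and less RNA per cell cannot be told apart.

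The labelled cell type was checked against 4 defining markers, and all of them were expressed. XBP1 (chr22:28794560-28800569), the transcription factor that expands the secretory pathway, had 603, 541 and 507 RPKM in gLuc 1, 2 and 3 and was the 130th row by mean level. IRF4 (chr6:391752-411443), on which myeloma cells depend, had 139, 190 and 209 RPKM. SDC1 (chr2:20200797-20225475), the surface proteoglycan CD138, had 102, 98.8 and 97.5 RPKM. PRDM1 (chr6:105992690-106109938), the repressor Blimp-1, had 24.9, 29.4 and 33.2 RPKM. The values of these 4 genes did not overlap between any pair of them, so their order was XBP1, IRF4, SDC1 and PRDM1 in each sample. With GENCODE lengths the order was the same, and XBP1 would be at 331 RPKM. None of 19 defining markers of T and NK, myeloid, epithelial, stromal and endothelial cells reached 1 RPKM, and their summed level was 0.241 to 0.411 RPKM per sample. Of 4 erythroid markers, 1 did, the globin HBB, and their summed level was 37.2 to 62.0 RPKM per sample. Of the mature B cell markers, BACH2, SPIB and CIITA were at 1.47 to 1.63 RPKM, and PAX5 and MS4A1 were under 0.1. Gene positions here and below are those of RefSeq on GRCh38.p14.

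All 10 listed transcriptional regulators of plasma cells were expressed, against 47.8% of all protein-coding rows. The median of the 10 was 44.3 RPKM. Gene lists here and below were chosen with earlier results of these data known, so such shares are descriptions and no independent support. POU2AF1, the B cell coactivator OCA-B, had 114, 119 and 139 RPKM, a range that overlapped that of IRF4. MEF2C and ZBTB38 followed at 79.6 ± 16.8 and 59.5 ± 17.3 RPKM and overlapped each other. ELL2, the elongation factor that favours the secreted form of immunoglobulin messenger RNA, had 21.8 ± 3.08 RPKM, below every value of PRDM1. IKZF3 and IKZF1, the Ikaros family factors that immunomodulatory drugs send for degradation, had 15.0 ± 1.91 and 8.81 ± 2.61 RPKM. With GENCODE lengths IKZF1 would be at 15.1 RPKM and IKZF3 unchanged. CREB3L2 had 13.5 ± 3.82 RPKM, and its values overlapped those of both.

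The genes of antibody assembly were led by JCHAIN (chr4:70655541-70666508), the peptide that joins IgA and IgM into polymers. JCHAIN had 7185, 7126 and 6388 RPKM, rank 3 of all named rows and rank 1 of the protein-coding ones. Its 594002 reads were 1.07% of all reads, and its level was 3.67 ± 0.439 times that of GAPDH (5.33 ± 0.637 with GENCODE lengths). All 14 listed secretory identity genes were expressed, against 47.8% of all protein-coding rows, and 13 were at 10 RPKM or more. Of all protein-coding rows, 21.4% were at 10 to 100 RPKM and 3.25% at 100 or more. MZB1, an ER chaperone of B and plasma cells, had 445, 340 and 288 RPKM, and the kinase PIM2 had 290, 257 and 295. SEC11C, a signal peptidase subunit, had 218 ± 38.8 RPKM and SSR4, of the translocon-associated complex, had 137 ± 28.0. With GENCODE lengths MZB1, SEC11C and SSR4 would be at 130, 47.8 and 54.1 RPKM, and PIM2, at 222, would lie above MZB1. The table names 1 of the 16 listed immunoglobulin constant and related genes, IGLL5, at 252, 245 and 210 RPKM. IGLL5 lies in the lambda light chain locus and shares sequence with its constant genes, so this value is uncertain, and heavy and light chain levels were not analysed here.

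Among 16 plasma cell surface proteins, 11 (68.8%) were expressed, against 47.8% of all protein-coding rows. This list too was chosen with earlier results known, so the share is a description only. Levels of the 16 spanned several orders of magnitude. ITGB7, the beta chain of gut-homing integrins, was the highest at 730, 757 and 719 RPKM. TNFRSF17, the receptor BCMA and a target of cellular therapies, had 498, 374 and 287 RPKM, higher than SDC1 in every sample. CXCR4, the receptor for the bone marrow chemokine CXCL12, had 64.0 ± 5.44 RPKM and the costimulatory receptor CD28 had 37.7 ± 6.85. ITGA4, TNFRSF13B, GPRC5D and SLAMF7 lay between 19.4 and 28.1 RPKM, and the values of neighbours in that order overlapped. CD38, the target of daratumumab, was lower at 10.6, 12.7 and 13.9 RPKM. FCRL5, CD27 and CD200 had 15, 3 and 9 reads in all 3 samples together. The order of these 5 depends on the length used: with GENCODE lengths GPRC5D would be at 73.8 RPKM, ITGA4 at 27.3, SLAMF7 at 11.8, CD38 at 10.3 and TNFRSF13B at 8.53.

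**Figure D1:**
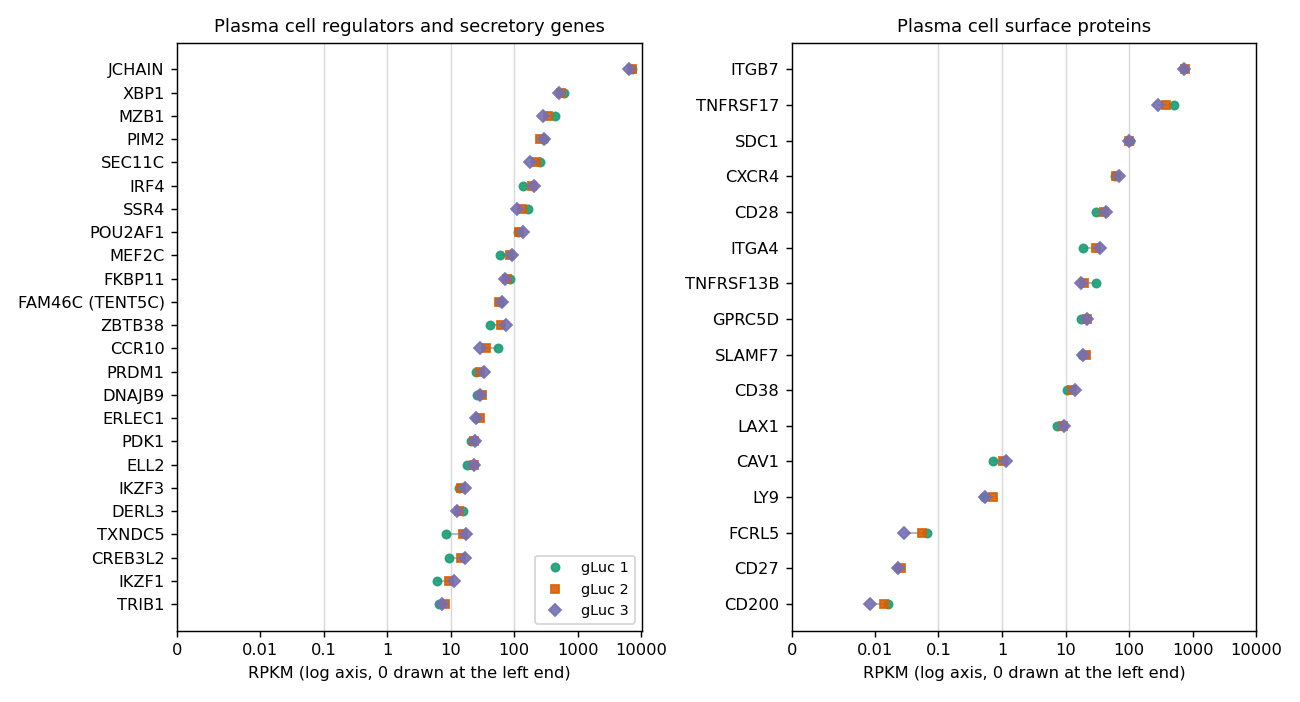
RPKM of the plasma cell regulators and secretory genes (left) and of the surface proteins (right) in gLuc 1 (circles), gLuc 2 (squares) and gLuc 3 (diamonds) on a log axis, with a grey line over the range of each gene. JCHAIN stands alone at 6900 ± 444 RPKM, and ITGB7 and TNFRSF17 lead the surface proteins while FCRL5, CD27 and CD200 lie under 0.1.

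The secretory machinery was expressed nearly throughout. Of 119 genes in 5 lists for ER import, folding, N-glycosylation, ER to Golgi transport and ER-associated degradation, 116 were at 1 RPKM or more and 105 at 10 or more (116 and 101 with GENCODE lengths). Of all protein-coding rows, 47.8% were at 1 RPKM or more, with 21.4% at 10 to 100 and 3.25% at 100 or more. The 119 genes took 3.12%, 3.29% and 3.32% of the reads of gLuc 1, 2 and 3. Their median level was 55.7 RPKM, or 32.0 with GENCODE lengths, against 0.660 over all protein-coding rows as deposited. The 3 exceptions under 1 RPKM each have a close relative that was expressed. ERO1B had 0.663 ± 0.193 RPKM beside 18.6 ± 4.06 for ERO1A, the other oxidase that recharges protein disulfide isomerase. KDELR3 had 5 reads beside 116 ± 13.9 RPKM for KDELR1, which returns escaped ER proteins. TUSC3 had 1 read beside 66.7 ± 0.554 RPKM for MAGT1, the alternative subunit of the oligosaccharyltransferase.

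The 24 genes of the import step, all of them expressed, had a median of 114 RPKM, the highest of the 5 lists with the deposited lengths. SEC61G, the small gamma subunit of the translocon channel, had 1412, 1069 and 705 RPKM, and its beta subunit SEC61B had 542, 472 and 427. SSR2 and TRAM1, which stand beside the channel, had 547 ± 64.0 and 486 ± 118 RPKM, and SRP14 of the signal recognition particle had 245 ± 26.8. With GENCODE lengths SEC61G, SEC61B and SSR2 would be at 269, 227 and 94.5 RPKM, below TRAM1 at 491. The list for folding had a median of 105 RPKM over 29 genes, and with GENCODE lengths its median would be the higher, 70.0 against 58.3 RPKM for import. The lectin chaperone CALR had 944, 677 and 683 RPKM and HSP90B1, the ER form of HSP90, had 768, 652 and 580. P4HB, a protein disulfide isomerase, had 322 ± 15.7 RPKM and HSPA5, the chaperone BiP, had 256 ± 23.8. With GENCODE lengths P4HB would be at 157 RPKM, below HSPA5 at 260. The medians for N-glycosylation, transport and degradation were 46.2, 40.3 and 33.2 RPKM. OSTC and DAD1 led the first at 265 ± 26.3 and 254 ± 8.88 RPKM, TMED2 the second at 225 ± 37.3, and UBE2J1, an ER ubiquitin-conjugating enzyme, the third at 241 ± 22.2.

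The promoters of the folding genes were searched for the ER stress response element, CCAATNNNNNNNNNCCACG, to which NF-Y and ATF6 bind, on both strands of the 300 bases from 250 before to 50 after the RefSeq start listed first for each gene. It was present in 6 of 28 folding genes with a promoter sequence (21.4%), in none of the 78 promoters of the other 4 lists, and in 22 of all 27305 promoters of the table (0.0806%). The element was picked for its known role at ER stress genes, so these shares are a description, no independent finding, and were not tested. The 6 genes were CALR, HSP90B1, HSPA5, CANX, CRELD2 and ERO1B, and XBP1 itself held a match. Its presence did not go with a high level in each case, since the 6 ranged from 0.663 RPKM (ERO1B) to 768 (CALR). Their median was 202 RPKM, against 59.0 for the 100 searched genes of the 5 lists without a match. All 6 are folding genes, while the 100 include genes of the other 4 lists, so this contrast also reflects list membership. The whole folding list had a median of 105 RPKM. The difference between genes with and without a match was not tested. A search at every start listed for a gene found 7 of the 28, with PDIA6 added, and 25 of the 27305 (0.0916%). With a spacer of 8 or 10 bases in place of 9, none of the 28 held a match. The 250 bases before the start are shown for the 4 highest of them, since they include the most abundant folding chaperones, with the element in capitals. On the opposite strand the element reads CGTGG first and ATTGG last, as in CALR (chr19:12938359-12938608, plus strand). HSP90B1 (chr12:103930160-103930409, plus strand) has a copy on each strand, and HSPA5 (chr9:125241344-125241593, minus strand) and CANX (chr5:179698679-179698928, plus strand) have 1 copy each on the strand of the gene. The table lists 4 starts for CANX, all inside the position RefSeq gives for the whole gene, and the others 1 each.
CALR: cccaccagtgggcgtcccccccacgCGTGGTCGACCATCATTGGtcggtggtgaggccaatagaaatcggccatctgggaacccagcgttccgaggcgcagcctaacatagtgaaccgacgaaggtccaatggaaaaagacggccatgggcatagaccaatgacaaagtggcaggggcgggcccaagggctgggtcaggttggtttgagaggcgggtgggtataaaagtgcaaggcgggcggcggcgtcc
HSP90B1: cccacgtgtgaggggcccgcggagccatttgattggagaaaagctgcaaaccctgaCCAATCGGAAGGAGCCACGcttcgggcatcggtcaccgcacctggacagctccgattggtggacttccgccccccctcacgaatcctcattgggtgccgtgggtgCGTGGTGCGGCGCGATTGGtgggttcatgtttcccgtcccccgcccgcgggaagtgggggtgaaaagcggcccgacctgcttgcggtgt
HSPA5: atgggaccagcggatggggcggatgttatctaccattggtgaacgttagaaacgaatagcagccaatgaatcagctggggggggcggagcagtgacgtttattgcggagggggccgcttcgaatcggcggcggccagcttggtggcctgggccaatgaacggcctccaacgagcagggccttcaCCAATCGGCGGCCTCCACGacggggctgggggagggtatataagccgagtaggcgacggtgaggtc
CANX: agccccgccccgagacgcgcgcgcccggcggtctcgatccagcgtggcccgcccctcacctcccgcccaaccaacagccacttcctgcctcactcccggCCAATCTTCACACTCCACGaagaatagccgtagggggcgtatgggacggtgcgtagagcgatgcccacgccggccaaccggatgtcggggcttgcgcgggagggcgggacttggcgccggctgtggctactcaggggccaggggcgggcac
A shorter motif, TGACGTG, the core bound by XBP1 and related factors, was present on either strand in 15 of 106 promoters of the 5 lists (14.2%) and in 2.0% of all promoters. Transport genes held 8 of the 15, among them COPA, SEC13 and SEC24A. It does not share its letters with the longer element beyond the CGTG end. A match is a string of letters and no evidence of binding, and no binding was measured.

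All 12 listed genes of the unfolded protein response were expressed, against 47.8% of all protein-coding rows. Levels of the 12 covered a wide range. ATF4, the transcription factor of the integrated stress response, had 399, 365 and 304 RPKM. Its targets were lower, with ASNS at 47.3 ± 4.64 RPKM, SESN2 at 22.0 ± 3.54, TRIB3 at 11.6 ± 1.65, DDIT3 at 10.5 ± 1.98, CHAC1 at 3.39 ± 0.385 and ATF3 at 1.33 ± 0.359. The sensors EIF2AK3 (PERK), ATF6 and ERN1 (IRE1) had 20.6 ± 2.94, 15.3 ± 3.66 and 7.38 ± 1.58 RPKM, and PPP1R15A, which reverses the translational arrest, had 15.0 ± 2.32. The deposited length of CHAC1 was 2.96 times its GENCODE exon length.

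Of 17 subunits of the core proteasome and immunoproteasome, 15 were at 10 RPKM or more. Of all protein-coding rows, 21.4% were at 10 to 100 RPKM and 3.25% at 100 or more. Among the 17 subunits PSMB4 was the highest at 764, 615 and 521 RPKM, although with GENCODE lengths it would be at 272 and PSMB3 at 324. PSME1 and PSME2, of the activator PA28, had 105 ± 15.0 and 49.6 ± 4.94 RPKM. PSMB8 and PSMB9, which are catalytic subunits of the immunoproteasome, were listed with 4 and 7 reads, while PSMB10, another such subunit, had 133 ± 42.1 RPKM. PSMB8 and PSMB9 lie in the histocompatibility region of chromosome 6, and their levels cannot be read for the reason given next.

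Rows of this region carried unusual gene lengths and few reads. Between positions 28000000 and 34000000 of chromosome 6, the deposited length of 184 protein-coding rows had a median of 4.63 times the GENCODE exon length, against 0.916 for the 18764 others, and 127 of them (69.0%) were under 0.1 RPKM, against 41.3%. The rows near 0 included genes that dividing cells in general use. RPS18, a ribosomal protein, had 10 reads in all 3 samples together, the beta tubulin TUBB had 26, the RNA helicase DDX39B had 4, and FLOT1, PPP1R10 and MDC1 had none. HLA-B and HLA-C nevertheless had 127 ± 23.2 and 71.3 ± 10.5 RPKM with lengths 3.31 and 4.42 times those of GENCODE. A longer length lowers RPKM by its factor, and how reads of the region were assigned was not tested. Of 590 different listed genes with a row, 34 had a length at least 2 times that of GENCODE, and they are read here only with that limit.

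**Figure D2:**
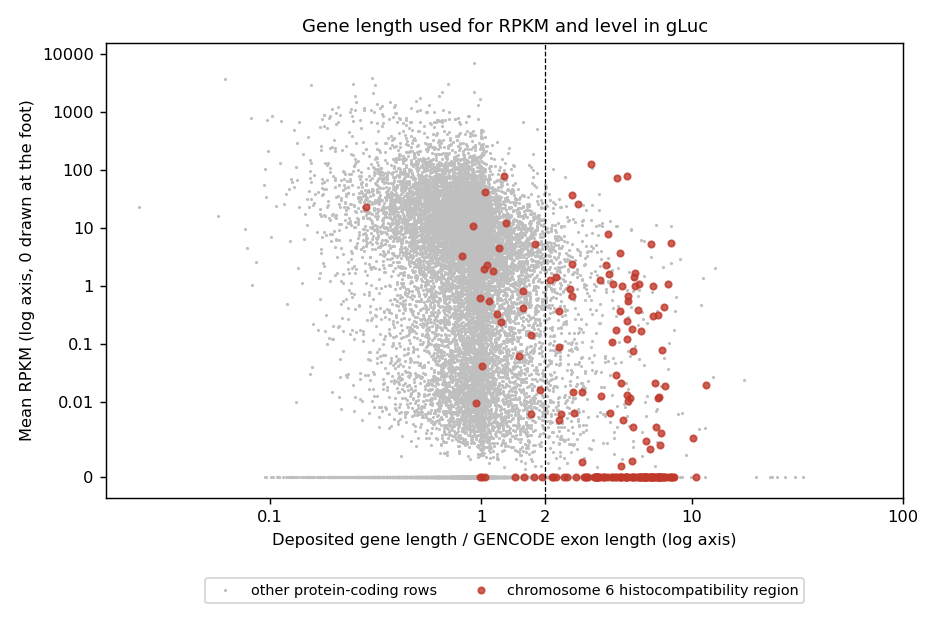
Mean RPKM over the 3 gLuc samples against the ratio of the deposited gene length to the GENCODE v29 exon length for each protein-coding row, both on log axes, with rows of the chromosome 6 region in red and a dashed line at a ratio of 2. The red points lie mostly right of the line, with a median ratio of 4.63, and 127 of 184 lie under 0.1 RPKM.

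Among the translocation partners of myeloma, FGFR3 stood highest. FGFR3 (chr4:1793293-1808867), a receptor tyrosine kinase, had 347, 411 and 450 RPKM and was the 166th row by mean level, while FGFR4 was at 0.558 ± 0.111 and FGFR1 and FGFR2 had 1 read and none. NSD2, listed by its earlier symbol WHSC1 (chr4:1871393-1982192), a histone H3K36 methyltransferase and the other gene affected by the translocation between chromosomes 4 and 14, had 57.2, 73.5 and 83.9 RPKM. The neighbours between and beside them, taken in map order, were lower than FGFR3 in every sample, with TACC3 at 81.3 ± 11.6, LETM1 at 11.7 ± 1.15 and NELFA at 15.6 ± 0.358 RPKM. NSD2 was not above all of them, since its values overlapped those of TACC3. Further out, SLBP had 97.7 ± 8.85 RPKM, above NSD2 in every sample, and TMEM129 had 11.0 ± 1.64. MYC had 113, 128 and 132 RPKM. MAF, a partner in other myelomas, was expressed at 10.7 ± 0.419 RPKM, and MAFA had 0.0155 ± 0.0135. MYCN had 3.33 ± 0.0586 RPKM and MYCL 0.116 ± 0.0111. The deposited length of MAF was 4.42 times that of GENCODE, with which its level would be 47.1 RPKM. Rearrangements were not measured.

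The D-type cyclins, which start the cell cycle with CDK4 and CDK6, were used unequally. CCND2 had 202, 245 and 297 RPKM, CCND3 had 12.3, 12 and 12.2, and CCND1 (chr11:69641156-69654474), a partner of the translocation with chromosome 14, had no read, which allows a level of up to 0.0126 RPKM. The CCND2 level was 20.4 ± 4.01 times that of CCND3, or 34.1 ± 6.70 times with GENCODE lengths. CDK4 had 118 ± 14.0 RPKM and CDK6 28.7 ± 10.7. Of the inhibitors, CDKN2A, which encodes p16 and ARF, had 100, 80.5 and 64.8 RPKM and CDKN1B, p27, had 61.4, 70.2 and 75.4, and these overlapped. CDKN2C (chr1:50960745-50974634), p18, had no read in any sample, an upper limit of 0.0217 RPKM, and CDKN1A, p21, had 0.516 ± 0.0421 RPKM. FAF1, a broadly expressed gene whose position ends within 1000 bases of CDKN2C, had 1 read, while RNF11 on the other side had 17.7, 20.3 and 20.3 RPKM. The DNA of the locus was not measured.

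The tumour suppressors known in myeloma were otherwise mostly present, 19 of 22 (86.4%) at 1 RPKM or more, against 47.8% of all protein-coding rows. Their share is a description only, as the list was chosen with earlier results known. BIRC3, an inhibitor of non-canonical NF-kB signalling, had 69.0 ± 9.78 RPKM, TENT5C (listed as FAM46C) 60.5 ± 3.25, MAX 34.7 ± 0.471 and ARID1A 24.0 ± 4.60. The genes targeted in the other groups of the series were both measured in the control cells. FBXW7 (chr4:152320544-152536092), the substrate receptor of a ubiquitin ligase, had 8.33, 7.93 and 8.27 RPKM, a spread of 2.66% of its mean, and would be at 4.63 with the GENCODE length. KMT2D (chr12:49018978-49060794), an enhancer H3K4 methyltransferase with a very long transcript, had 1.92, 2.92 and 5.35 RPKM, a spread of 52.1% of its mean.

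**Figure D3:**
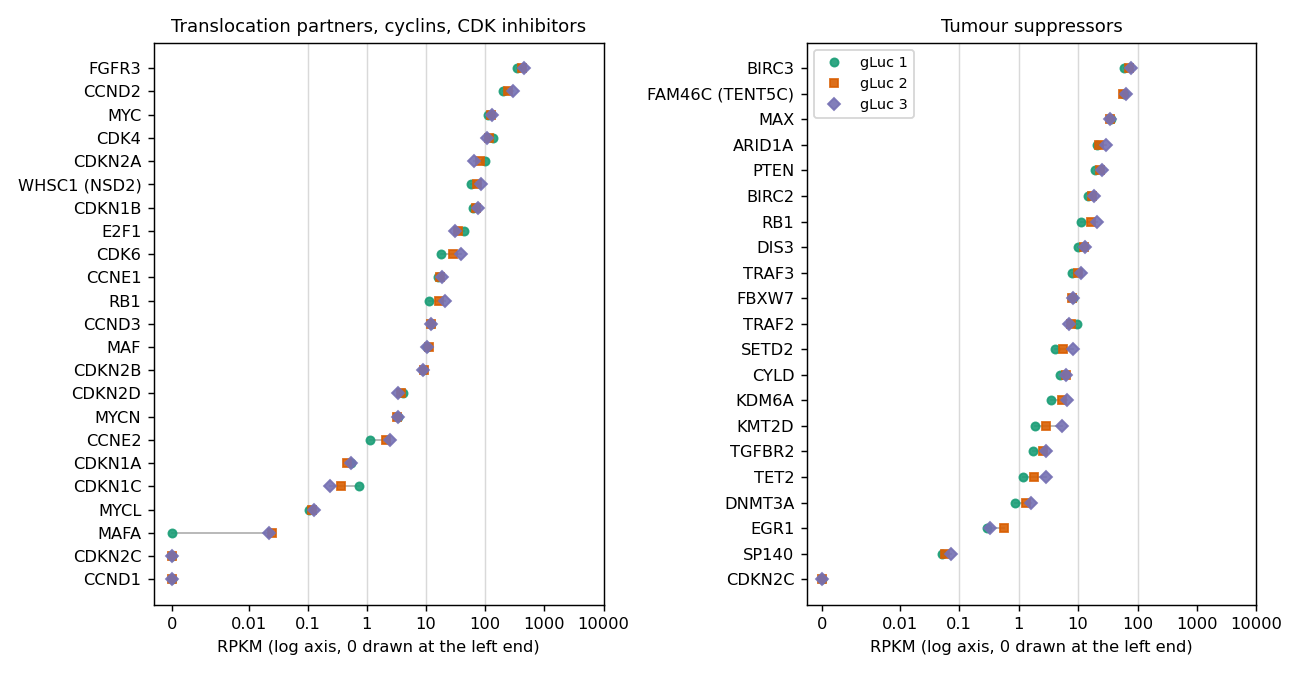
RPKM of listed translocation partners, cyclins and CDK inhibitors (left) and of tumour suppressors (right) in the 3 gLuc samples on a log axis, with values of 0 drawn at the left end and a grey line over the range of each gene. FGFR3 and CCND2 are the highest on the left and CCND1 and CDKN2C have no read, while KMT2D on the right spans 1.92 to 5.35 RPKM.

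Of 25 signalling and survival genes, chosen with earlier results known, 23 (92.0%) were expressed, against 47.8% of all protein-coding rows. CKS1B, a cyclin kinase subunit on the arm of chromosome 1 that is often gained in myeloma, led at 354, 235 and 195 RPKM, but would be at 103 with the GENCODE length, below MCL1 at 116. MCL1, a survival factor of plasma cells, had 110, 128 and 135 RPKM, higher in every sample than BCL2 at 7.80 ± 1.96 and BCL2L1 at 5.78 ± 0.436. NFKB2 and RELB, the pair of the non-canonical NF-kB pathway, had 70.8 ± 4.93 and 49.2 ± 1.93 RPKM, above NFKB1 at 16.2 ± 2.81. NRAS had 63.1 ± 9.29 RPKM and HRAS 47.6 ± 15.0.

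Of 42 cytokine and growth factor receptors, 18 were at 1 RPKM or more and 16 under 0.1, and their median of 0.624 RPKM was close to the 0.660 of all protein-coding rows. After FGFR3 the highest was IL2RG, the common gamma chain, at 261, 312 and 282 RPKM. Of its partner chains, IL2RA, IL2RB and IL7R had no read, IL21R was at 0.593 ± 0.0115 RPKM and IL15RA was at 3.65 ± 0.559. IFNAR2 had 62.0 ± 12 RPKM, IL10RB 25.6 ± 5.37 and TNFRSF1B 22.8 ± 1.52. Both chains of the receptor for IL-6, a growth factor of myeloma, were present, IL6R at 17.0, 16.3 and 16.8 RPKM and IL6ST at 10.5, 18.9 and 25.6, and they overlapped. CD40, MET and EGFR had no read and LTBR had 1.

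Of 43 chemokine and adhesion receptors, 21 (48.8%) were expressed and 10 (23.3%) had no read. These shares were near the 47.8% and 24.3% of all protein-coding rows. Below ITGB7 lay SDC1 and BSG, the latter at 98.9 ± 1.77 RPKM, and these overlapped. The tetraspanins CD63 and CD81, at 78.1 ± 14.0 and 72.6 ± 10.8 RPKM, and CXCR4 were next and overlapped one another. Integrins work as pairs of 1 alpha and 1 beta chain. The level of ITGB7 was 28.0 ± 9.39 times that of ITGA4, or 19.5 ± 6.55 times with GENCODE lengths. ITGB7 and ITGA4 form the receptor for MAdCAM-1, and the other partner of ITGB7, ITGAE, had 2.02 ± 0.348 RPKM. ITGAL, the alpha chain of LFA-1, had 44.2, 54.1 and 67.3 RPKM, whereas ITGB2 (chr21:44885953-44928815), its only known beta chain, had no read, an upper limit of 0.0161 RPKM. The neighbours of ITGB2 on both sides were expressed, PTTG1IP at 23.0 ± 0.609 RPKM and FAM207A at 20.8 ± 5.02. CCR1 and CCR10, receptors for inflammatory and mucosal chemokines, had 40.6 ± 10.8 and 40.3 ± 13.1 RPKM. Of 27 death receptors, checkpoint molecules and NK cell ligands, 4 (14.8%) were expressed, against 47.8% of all protein-coding rows. These were TNFRSF10A at 11.3 ± 2.45 RPKM, CD47 at 8.95 ± 0.686, PVR at 7.63 ± 0.441 and FAS at 1.77 ± 0.222. With GENCODE lengths 6 would be expressed, with FAS at 4.05 RPKM and also MICB at 3.19 and ULBP3 at 2.44. The deposited levels of MICB and ULBP3 were 0.431 and 0.767. MICB lies in the chromosome 6 region described above, so its level is uncertain with either length.

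Most genes of the mature B cell programme were low. Of 48 genes, 31 (64.6%) were under 0.1 RPKM, against 62.4% of all named rows and 41.9% of the protein-coding ones. At 1 RPKM or more were 10 (20.8%), against 27.0% and 47.8%. No read was seen for 12 (25%), against 43.6% and 24.3%, so the share without a read was near that of all protein-coding rows. PAX5, the regulator of B cell identity, had 4 reads and MS4A1, which encodes CD20, had 5. The signalling genes CD22, BTK, SPI1 and CD37 had no read and SYK had 1. The exceptions were P2RY8, a germinal centre receptor, at 28.0, 32.9 and 37.3 RPKM, MYBL1, a germinal centre transcription factor, at 20.5, 29.5 and 35.4, and CD79B, a chain of the B cell receptor, at 18.6, 14.8 and 11.0. P2RY8 and MYBL1 overlapped, and CD79B was below both in every sample. The level of CD79B was 147 ± 13.1 times that of its partner CD79A, or 107 ± 9.52 times with GENCODE lengths. CD79A had 7 reads. LYN had 4.99 ± 0.932 RPKM, and BACH2, SPIB, CIITA, S1PR2, ETS1 and BCL11A lay between 1.01 and 1.63.

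Of the class II antigen presentation genes, CD74, the invariant chain, was the highest at 68.8, 75.0 and 89.6 RPKM, while CIITA, which switches the class II genes on, had 1.47 ± 0.400. HLA-DRA had 5.4 ± 1.06 RPKM, HLA-DRB1 1.67 ± 0.209, HLA-DQA1 0.817 ± 0.112 and HLA-DQB1 0.371 ± 0.0483. HLA-DPB1, HLA-DOB, HLA-DMB, HLA-DOA, HLA-DPA1 and HLA-DMA were listed under 0.1 RPKM. All of these HLA rows lie in the chromosome 6 region described above, so their levels are uncertain with either length. The length of HLA-DRA was 8 times that of GENCODE, with which its level would be 43.2 RPKM.

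Genes of other lineages were low with few exceptions. Of 119 genes in 7 lists, 98 (82.4%) were under 0.1 RPKM, against 62.4% of all named rows and 41.9% of the protein-coding ones. No read was seen for 56 (47.1%), against 43.6% and 24.3%, and 12 (10.1%) were expressed, against 27.0% and 47.8%. Together the 119 took 0.0338% ± 0.000485 of the reads. None of 20 myeloid, 12 epithelial or 16 liver, muscle and germ cell genes reached 1 RPKM. Among the epithelial genes EPCAM, CDH1, KRT8, KRT19, KRT20 and GRHL2 had no read, and CLDN4, KRT5, CLDN3, KRT14, KRT18 and TP63 were under 0.1. In the T and NK list, 22 of 25 were under 1 RPKM, and LEF1, a partner of beta-catenin, was the exception at 26.0, 30.8 and 33.4 RPKM, with EOMES at 1.06 ± 0.0889 and GATA3 at 1.03 ± 0.0972.

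The adult globin genes were a second exception. HBB (chr11:5225464-5227071) had 62.0, 49.8 and 37.2 RPKM from 1732 reads and HBD (chr11:5232838-5234483) had 62.8, 48.1 and 39.1 from 2160. The levels of both overlapped, and since the genes are close copies that can share reads, the split between them is uncertain. The fetal genes beside them, HBG1 and HBG2, had 2 and 3 reads, HBA1 and HBA2 had none, and KLF1 and GATA1, regulators of red cell development, had 1 each. EPOR had 3.77 ± 0.369 RPKM. Of 13 neural genes, 4 were expressed, OLIG1 at 19.7, 17.9 and 18.6 RPKM, the tubulin TUBB3 at 11.5 ± 0.828, MBP at 3.88 ± 1.01 and SOX2 at 3.84 ± 0.156. OLIG2, the neighbour and relative of OLIG1, had 3 reads, and GFAP, NEUROD1 and NEFL had none. TWIST1 at 2.90 ± 0.490 and TAGLN at 1.09 ± 0.205 RPKM were the only stromal genes at 1 RPKM or more. Of 16 early B cell and progenitor genes, SOX4 had 40.3, 32.0 and 28.0 RPKM, IGLL1 4.27 ± 1.33 and MEIS1 1.47 ± 0.399, and the other 13 were under 0.1.

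**Figure D4:**
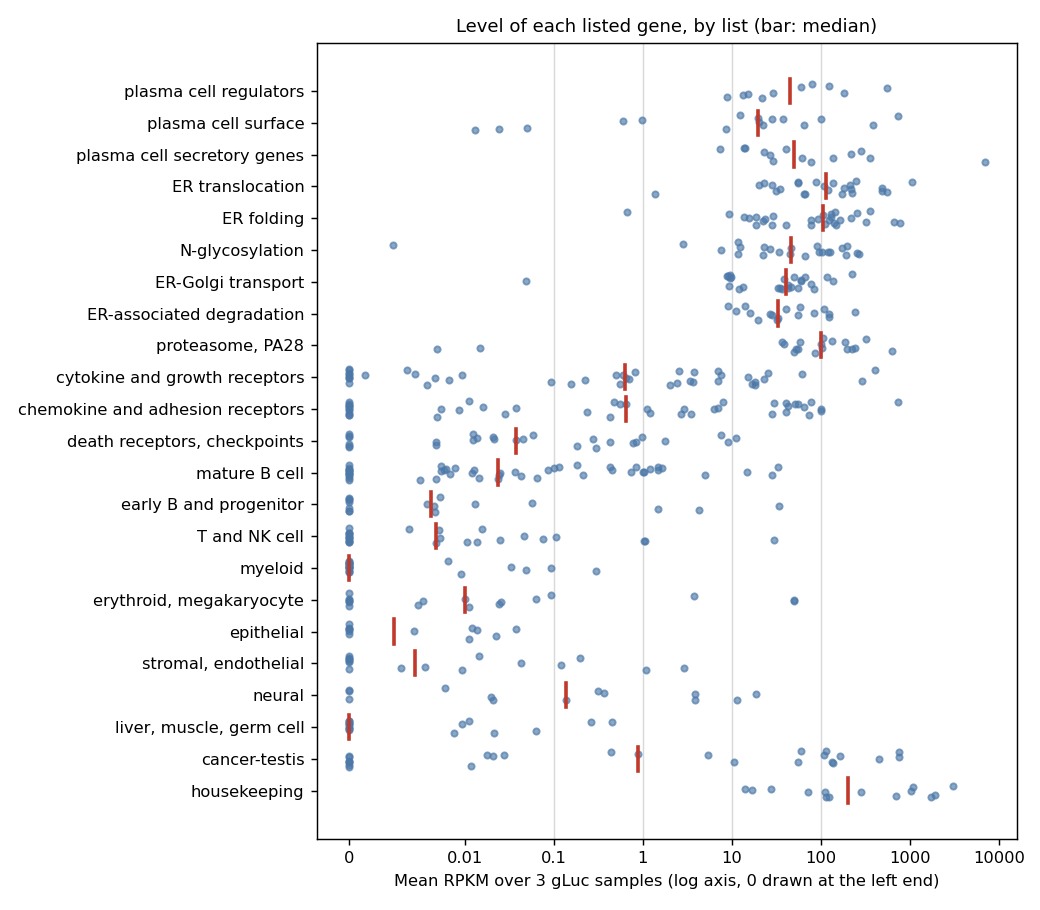
Mean RPKM over the 3 gLuc samples for each member of the gene lists on a log axis, with 1 point per gene, values of 0 at the left end and a red bar at the median of each list. Medians lie between 19.9 and 114 RPKM for the plasma cell, ER and proteasome lists and under 0.2 for the lists of B cells and other lineages, with single expressed genes standing apart in the latter.

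Of 25 listed cancer-testis genes, normally restricted to germ cells, 12 (48.0%) were expressed, near the 47.8% of all protein-coding rows. Families differed, and within some only part of the rows were expressed. CTAG1A and CTAG1B, which encode the antigen NY-ESO-1, each had 968, 703 and 592 RPKM, from 31547 and 31546 reads. These genes are near-identical copies with nearly the same count, so their separate levels are uncertain. CTAG2 had 543, 432 and 375 RPKM. Of 12 MAGEA rows, 9 were expressed, led by MAGEA6 at 162 ± 21.9 RPKM and MAGEA4 at 131 ± 15.5. PAGE5 had 135 ± 19.9 RPKM and was the only 1 of 6 PAGE rows at 1 RPKM or more. None of 12 GAGE rows had a read, and none of 10 MAGEB rows and 8 SSX rows reached 1 RPKM. MAGEA3 and MAGEA6 are close copies too, and their split is uncertain. The 9 MAGEA rows also include MAGEA2 with MAGEA2B and MAGEA9 with MAGEA9B, which may share reads in the same way. The count of 9 is therefore one of rows and may stand for fewer separately expressed genes.

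The highest rows were for the most part those of any growing cell. Among the 50 highest were 20 ribosomal protein genes, 11 mitochondrial DNA genes and 11 further protein-coding rows, which besides JCHAIN included EEF1A1 at 3016 ± 772 RPKM, PTMA at 2217 ± 1020, GAPDH at 1889 ± 118, ACTB at 1715 ± 295 and FTL at 1698 ± 308. In 7 of the 50 the deposited length was under 200 bases. These were small RNA rows such as SNORD141A, with 12826 ± 3746 RPKM over 105 bases, and MIR1244-2, with 9515 ± 1012 over 85. Rows of this kind that lie inside other genes share their reads with them, and libraries selected for poly(A) tails are not made to capture such RNAs, so these values are uncertain.

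The 3 samples ranked genes much alike, with differences that followed gene length. Across the 10376 expressed genes, Spearman's rho, a description across genes and not across replicates, was 0.984 between gLuc 1 and 2, 0.965 between 1 and 3 and 0.991 between 2 and 3. Among 4971 rows at 10 RPKM or more, the median coefficient of variation was 12%. The log2 ratio of gLuc 1 to gLuc 3 had a median of 0.62 for 409 genes of up to 1000 bases, 0.02 for 1894 genes of 2000 to 4000 bases and -0.48 for 290 genes over 8000 bases. The gap of gLuc 2 to gLuc 3 ran the same way, from 0.26 to -0.21. Long genes such as KMT2D, JAK1 (13.5, 22.4 and 27.3 RPKM) and CNOT1 (11.8, 27.3 and 44.5) were lowest in gLuc 1, and short ones such as SEC61G and DPM3 (225, 96.6 and 69.8) highest. The mitochondrial DNA genes took 1.64% of the reads in gLuc 1, 3.02% in gLuc 2 and 3.33% in gLuc 3. CNOT1 and DPM3 were among the 10 rows of largest spread, with SNORD38B, BCYRN1, MIR142, HMGN5, SNORD140, PTMS, LINC00987 and LOC441454, and 9 of the 10 were highest in gLuc 1. The part of the length trend in any single level was not tested.

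**Figure D5:**
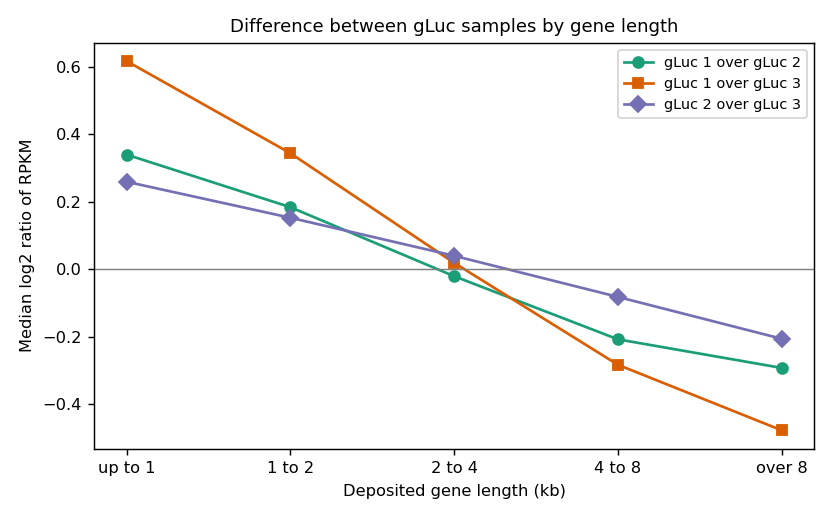
Median log2 ratio of RPKM between pairs of gLuc samples, 1 line per pair, for 5 classes of deposited gene length among the 4971 rows at 10 RPKM or more. All 3 lines fall from short to long genes, the steepest from 0.62 to -0.48 for gLuc 1 over gLuc 3.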

How the data were processed

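Per the labels' protocols, total RNA of the 3 gLuc samples was column-purified, enriched for polyadenylated transcripts and sequenced from dUTP-stranded libraries. Per the submitters' processing notes, the authors used Trimmomatic, STAR, featureCounts and DESeq2 with genome build GRCh38; versions, annotation and counting options are not given in the sources used here. Per the file headers, each gene row gives a length, and for each sample a read count and RPKM. The deposited count columns hold whole, unscaled reads. The authors' deposited RPKM equals the count divided by the length in kilobases and by the column total in units of 1000000 reads, to a relative difference of at most 4e-07.

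The RPKM was used as deposited, without a pseudocount or filter. An unnamed row of column sums was left out, and 28 rows with a number for a name stayed in the totals only (named rows hold 99.8% of the reads). Genes were classed by mean RPKM with limits of 0.1, 1, 10 and 100, and 2 genes were set in order only where their 3 values did not overlap; the leading genes of a list are those of highest mean. A single group was described, so no test was made. The members and the 31 gene lists were chosen with earlier results of these data known. Genes named by rule are the 4 markers, the 30 highest rows, the 5 highest of each list, all members of lists under 13 genes, expressed members of the B cell and other-lineage lists, FBXW7, KMT2D and the 10 rows of largest spread at 10 RPKM or more. A few genes that this rule names are not reported here. All other genes in the text (such as CD38, FCRL5, CDKN2C and its neighbours, the partner chains of IL2RG and ITGAL, PSMB8 to PSMB10, BCL2, JAK1 and the chromosome 6 genes) were chosen after their values were seen.

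Symbols were matched to RefSeq (GRCh38.p14; 33207 rows) for type, position and promoter sequence, and to GENCODE v29 for exon length (24741 rows). Levels with that length, and promoter matches at any listed start, were alternatives chosen after seeing the data. Classes and the length trend were checked on simulated data. Python 3.11.15, pandas 2.3.3 and matplotlib 3.10.9 were used.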

Additional observations from a re-analysis of the deposited data

How the results depend on the processing

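The number of genes at 1 RPKM or more and the counts of silent lineage genes stayed within 1.5 times under every alternative run: thresholds of 0.5 and 2 RPKM, a minimum of 10 reads in each sample, TPM, silence defined under 0.5 RPKM or by at most 1 read in every sample, each sample left out, and 2 of the alternatives chosen after seeing the data (GENCODE lengths, and leaving out members of at least 2 times that length).

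List positions depended mostly on gene length. Without division by length (counts per 1000000), the median rank among all named rows went from 1717.5 to 491 for plasma cell regulators, 3139 to 3563.5 for surface proteins, 567.5 to 706.5 for ER import, 625 to 1612 for folding, 1481 to 2145 for N-glycosylation, 2014 to 1846 for ER-associated degradation, 663 to 1611 for the proteasome and 17417.5 to 16371.5 for mature B cell genes. With GENCODE lengths, ranked among the 24741 rows that have one, these were 1110, 3571, 796, 629, 1727, 1676, 879 and 14403.5, with 1641.5 for secretory identity genes (1401.5 as deposited) and 2150.5 for ER to Golgi transport (1679.5). Among protein-coding rows only, also chosen after seeing the data, surface proteins had 3006.5, folding 588, N-glycosylation 1410 and mature B cell genes 12321. With the median of the 3 samples, folding had 661 and mature B cell genes 16821. Leaving out each sample gave 609 to 671 for folding, 1359 to 1464 for N-glycosylation and 16991 to 17786 for mature B cell genes. TPM, and a total without mitochondrial and immunoglobulin genes, moved no list by more than the SD between samples. The 100 highest genes held 20.4% of the reads when ranked by read count. The promoter element had 0 matches among folding genes with a spacer of 8 bases and 0 with 10, and 7 at any listed start. No paired analysis was possible because a single group was described. Depth limits the lowest levels, where few reads set the order.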
